A study of Bos taurus with 12 samples.

Results

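The Notch genes described here were 3 receptors (NOTCH1, NOTCH2 and NOTCH3), 3 ligands (JAG1, JAG2 and DLL1), 3 transcriptional targets (HES1, HEY1 and HEYL) and the DNA-binding protein RBPJ. They were chosen by name as 10 of the 18436 genes in the expression table, together with every m6A peak annotated to them, which were 19 of 19739 peaks in myoblasts and 19 of 20790 in myotubes. Primary myoblasts came from the longissimus dorsi muscle of newborn Qinchuan cattle. They were either harvested while proliferating at 80% confluence in growth medium (GM, DMEM/F12 with 20% fetal bovine serum), or harvested as myotubes after 4 days in differentiation medium (DM, DMEM/F12 with 2% horse serum, 100% confluence). The 2 states therefore differed in serum, confluence and time at once, and the parts of these cannot be told apart. Each state had 3 biological repeats, and each repeat gave an input library, read as gene expression, and a library immunoprecipitated (IP) with an antibody against N6-methyladenosine (m6A), 12 libraries in all. The methods speak of a newborn in the singular, and nothing says that the repeats came from separate animals or isolations, so the p-values measure only the spread between these libraries.

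Notch is a receptor on the cell surface that is activated by a ligand on a neighbouring cell. Activation cuts the receptor, and its freed intracellular part enters the nucleus, where it joins RBPJ and Mastermind-like co-activators and switches on repressor genes of the HES and HEY families. In skeletal muscle the pathway is known for keeping satellite cells and myoblasts from differentiating. m6A is a methyl mark on adenosines of mRNA that lies most often near stop codons and in 3′ UTRs.

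In the coordinates of the gene table (ARS-UCD1.2), NOTCH1 lies on the minus strand of chromosome 11 (103935364 to 103980160), NOTCH2 on the plus strand of chromosome 3 (23163504 to 23368572) and NOTCH3 on the plus strand of chromosome 7 (7910635 to 7950476). The ligand genes JAG1, JAG2 and DLL1 lie on chromosomes 13, 21 and 9. HES1, HEY1 and RBPJ lie on chromosomes 1, 14 and 6, and HEYL on chromosome 3 (106442589 to 106458224), far from NOTCH2.

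Most of the measured Notch genes were lower in DM, and NOTCH2 was the only member called higher. Of the 10 genes, 9 averaged 0.5 FPKM or more across the inputs and were tested. NOTCH1, NOTCH3, DLL1, HES1, HEY1 and HEYL fell, NOTCH2 rose, and JAG1 and RBPJ were not called. FPKM counts fragments relative to transcript length and library size, so genes can be compared within a library. Between libraries its scale can differ, and the sum over all genes lay between 415740 and 434458 FPKM in GM libraries and between 386437 and 390827 FPKM in DM libraries. A gene was called when limma gave a Benjamini-Hochberg adjusted p under 0.05, over all tested genes, and the fitted change in log2(FPKM + 1) was more than 1.5-fold. By this rule 11.8% of the 12302 tested genes were called, 4.89% higher and 6.88% lower in DM. The median log2 fold change of the 9 tested members was −0.61 and that of all tested genes −0.05. Adding 1 to the FPKM shrinks the change of low genes, so the plain ratio of means is given beside the fitted value of each called gene that is described. The whole table moved with the scaling. The median over all tested genes was −0.05 as deposited and 0.06 after conversion to TPM, and the share of called genes that were higher was 41.6% and 55.1%. The 7 called members were called in both. After scaling by median-of-ratios size factors, 5 members were called, as DLL1 and HEY1 reached log2 fold changes of −0.56 and −0.57 and missed the fold limit.

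**Figure D1:**
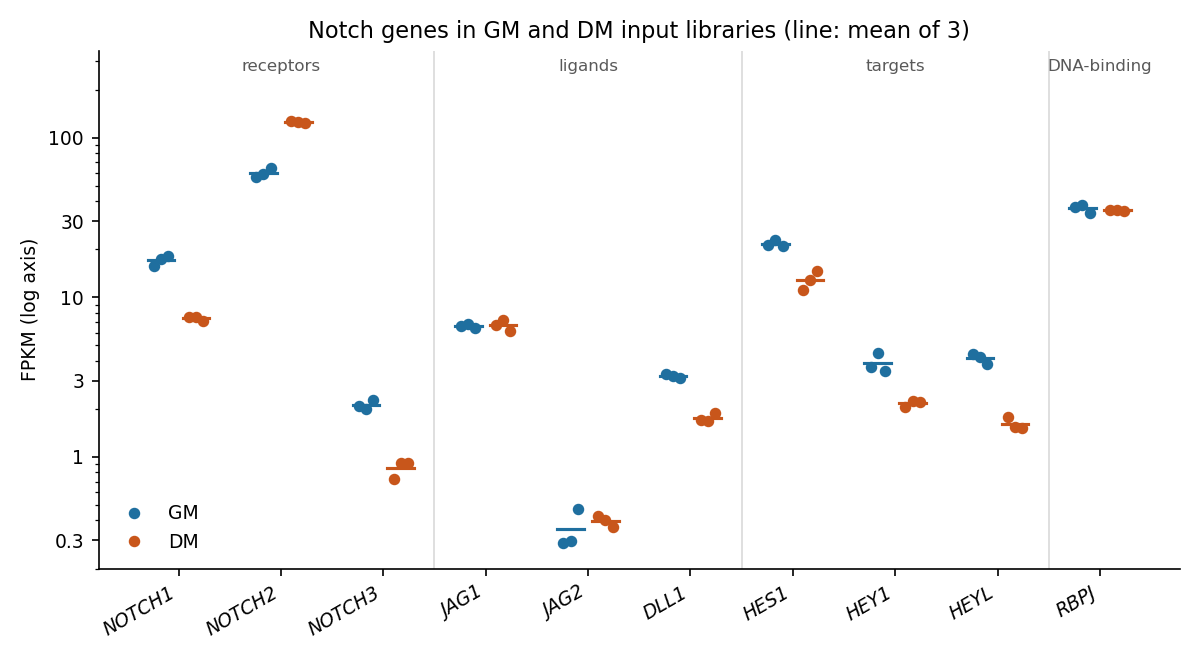
FPKM of the 10 Notch genes (log axis) in each of the 3 GM and 3 DM input libraries, with a line at the mean of each group. NOTCH2 stood at 56.7 to 64.3 in GM and 124 to 127 in DM, while NOTCH1, NOTCH3, DLL1 and the 3 targets were lower in all DM libraries than in all GM libraries.

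Among the receptors, NOTCH2 was the most abundant in both states and moved opposite to the other 2. NOTCH2 measured 56.7, 59.2 and 64.3 FPKM in the 3 GM libraries and 127, 125 and 124 FPKM in the 3 DM libraries. The groups did not overlap, and the DM mean was 2.08-fold higher (log2 fold change 1.05, SE 0.06, adjusted p = 3.41e-06, limma). NOTCH1, the receptor best known from T cell development, measured 15.6, 17.3 and 18.2 FPKM in GM and 7.51, 7.54 and 7.13 FPKM in DM. Its DM mean was 43.4% of the GM mean, and the lowest GM library lay above the highest DM library (log2 fold change −1.10, SE 0.07, adjusted p = 7.07e-06, limma). NOTCH3, known as a receptor of pericytes and smooth muscle cells, was the least expressed of the 3. It measured 2.10, 1.99 and 2.29 FPKM in GM and 0.731, 0.921 and 0.911 FPKM in DM, which was 40.2% of the GM mean. Its groups did not overlap either (log2 fold change −0.75, SE 0.08, adjusted p = 1.63e-04, limma). Over all tested genes, 54.1% had groups that did not overlap, 21.1% with DM above and 33% with DM below.

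The receptor pool therefore changed in make-up as well as in size. The summed FPKM of the 3 receptors was 74.4 to 84.7 in GM and 132 to 135 in DM. NOTCH2 made up 76.2%, 75.4% and 75.9% of that sum in the GM libraries and 93.9%, 93.7% and 93.9% in the DM libraries. NOTCH1 fell from 21.5% ± 0.57 (SD, n = 3) to 5.55% ± 0.13 (SD, n = 3) of the sum. The ratio of NOTCH2 to NOTCH1 within a library lay between 3.41 and 3.64 in GM and between 16.6 and 17.4 in DM. Such within-library ratios do not depend on how libraries are scaled to each other. An exact two-sided permutation test of the NOTCH2 to NOTCH1 ratio gave p = 0.10, which is the smallest that 3 against 3 libraries allow. NOTCH1 and NOTCH3 fell by like amounts, and their ratio was 7.44 to 8.72 in GM and 7.83 to 10.3 in DM, with overlapping groups.

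**Figure D2:**
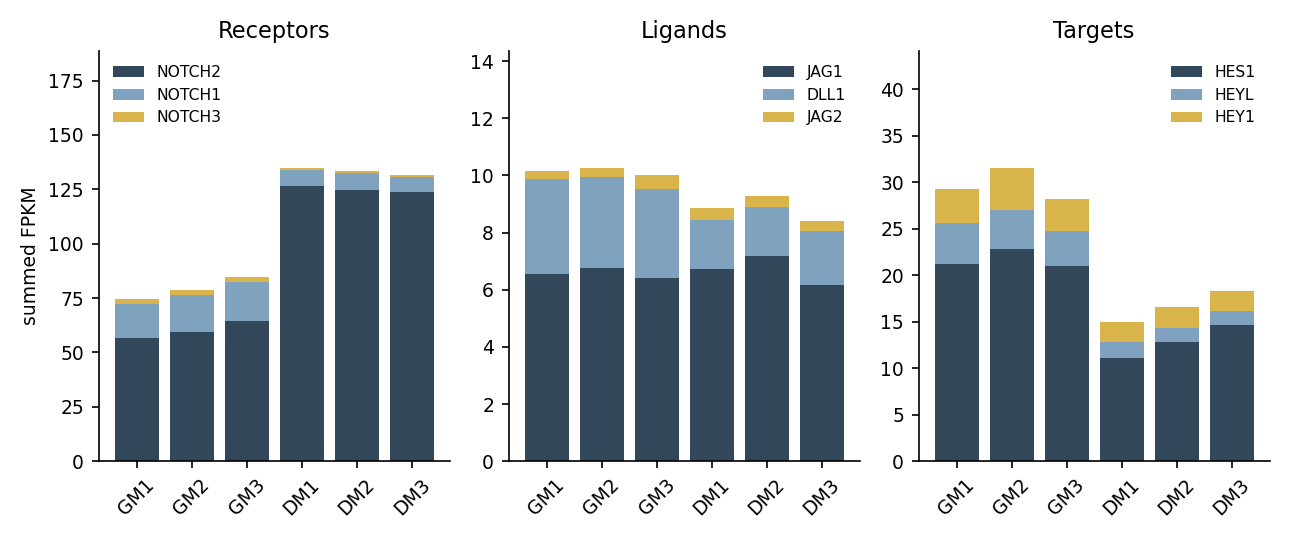
Summed FPKM of receptors, ligands and targets, 1 bar per input library, each split by gene. In the receptors the NOTCH2 part grew and the NOTCH1 part shrank from GM to DM, in the ligands JAG1 kept its height while DLL1 shrank, and in the targets the whole bar was lower.

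Among the ligands, DLL1 fell and JAG1 was not called. DLL1, a Delta-like ligand that myogenic cells present to their neighbours, measured 3.31, 3.20 and 3.13 FPKM in GM and 1.71, 1.68 and 1.89 FPKM in DM. Its DM mean was 54.8% of the GM mean, with no overlap between the groups (log2 fold change −0.61, SE 0.07, adjusted p = 1.96e-04, limma). JAG1, the more abundant Jagged ligand here, measured 6.57, 6.76 and 6.41 FPKM in GM and 6.73, 7.19 and 6.15 FPKM in DM. The DM values enclosed the GM values, and the log2 fold change was 0.02 with a 95% interval from −0.14 to 0.18 (adjusted p = 0.844, limma). JAG2, the other Jagged ligand, was below the expression limit. It measured 0.289, 0.298 and 0.474 FPKM in GM and 0.426, 0.405 and 0.364 FPKM in DM, where the groups overlapped, and it was not tested. The ratio of JAG1 to DLL1 was 1.98 to 2.11 in GM and 3.26 to 4.27 in DM. JAG1 made up 64.8% ± 0.97 (SD, n = 3) of the summed ligand FPKM in GM and 75.5% ± 2.2 (SD, n = 3) in DM.

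The 3 target genes were lower in every DM library than in any GM library. HES1, a helix-loop-helix repressor and the most expressed of the 3, measured 21.3, 22.8 and 21.0 FPKM in GM and 11.1, 12.8 and 14.6 FPKM in DM. Its DM libraries were the most spread of the targets, yet the highest stayed below the lowest GM library, and the DM mean was 59.2% of the GM mean (log2 fold change −0.72, SE 0.09, adjusted p = 4.39e-04, limma). HEY1, a related repressor, measured 3.64, 4.48 and 3.46 FPKM in GM and 2.05, 2.23 and 2.21 FPKM in DM. The DM mean was 56.0% of the GM mean. GM repeat 2 was the highest, and the log2 fold change was −0.61 with it (SE 0.09, adjusted p = 9.12e-04, limma) and −0.53 without it, where the fold limit was missed. HEYL, the third member of the HEY family, measured 4.38, 4.21 and 3.83 FPKM in GM and 1.79, 1.55 and 1.51 FPKM in DM. Its DM mean was 39% of the GM mean, the lowest share among the targets (log2 fold change −0.98, SE 0.08, adjusted p = 2.99e-05, limma). The targets did not fall alike, since the ratio of HES1 to HEYL was 4.85 to 5.48 in GM and 6.20 to 9.68 in DM. The summed FPKM of the 3 targets was 28.3 to 31.5 in GM and 14.9 to 18.3 in DM.

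RBPJ, which binds DNA for all Notch receptors and acts as a repressor when no Notch fragment is present, was expressed at a like level in both states. It measured 36.6, 37.8 and 33.6 FPKM in GM and 35.3, 35.2 and 34.6 FPKM in DM, with the DM values inside the GM range. The log2 fold change was −0.04 with a 95% interval from −0.17 to 0.09 (adjusted p = 0.628, limma), and its sign turned under TPM and size factors. The ratio of HES1 to RBPJ was 0.581 to 0.624 in GM and 0.314 to 0.423 in DM.

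Ordered by level, GM ran from NOTCH2 through RBPJ, HES1, NOTCH1, JAG1, HEYL, HEY1, DLL1 and NOTCH3 to JAG2. HEYL and HEY1 were the only neighbours in that order whose 3 values overlapped. In DM the order was NOTCH2, RBPJ, HES1, NOTCH1, JAG1, HEY1, DLL1, HEYL, NOTCH3 and JAG2. There NOTCH1 overlapped JAG1 and DLL1 overlapped HEYL. NOTCH1 thus stood well above JAG1 in GM. In DM it was closer to JAG1 but still above it within each library, at 7.51, 7.54 and 7.13 FPKM against 6.73, 7.19 and 6.15 FPKM.

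The marker genes of the culture moved beside these values. PAX7, the satellite cell transcription factor, was 0.979 to 1.17 FPKM in GM and 0.0417 to 0.102 FPKM in DM. MYF5 fell from 10.7 to 12.6 FPKM in GM to 1.95 to 2.41 FPKM in DM, and MYOD1 from 57.8 to 65.7 FPKM to 24.0 to 26.1 FPKM. Of the myotube genes, MYH3, embryonic myosin, rose from 270 to 275 FPKM in GM to 642 to 670 FPKM in DM, and CKM, muscle creatine kinase, rose from 9.23 to 11.8 FPKM to 39.7 to 44.7 FPKM. MYOG, which marks cells committed to differentiate, was already at 190 to 207 FPKM in GM and at 226 to 253 FPKM in DM, and the fusion gene MYMK was at 37.5 to 47.2 and 46.1 to 48.2 FPKM. MYOG and MYMK were thus present in GM too. In bulk RNA, fewer cells of a type and less RNA per cell cannot be told apart.

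Other cell types express Notch genes too. Of 6 fibroblast markers 3 were higher in DM at an adjusted p under 0.05 and none passed the fold limit (limma). Over all tested genes, 42.8% met that adjusted p (limma), 16.1% higher and 26.7% lower in DM. The summed FPKM of the fibroblast markers was 10282 to 10429 in GM and 11633 to 12197 in DM, most of it collagen. Of 7 pericyte and smooth muscle markers 6 were in the table, 5 were tested, and at an adjusted p under 0.05 PDGFRB, CSPG4 and MCAM were higher and ACTA2 and CNN1 lower in DM, of which CSPG4 also passed the fold limit (limma). Their summed FPKM was 2253 to 2726 in GM and 1822 to 2095 in DM, most of it ACTA2, at 2026 to 2473 and 1619 to 1881. MYH11, in the table but too low to be tested, was at 0.245 to 0.314 FPKM in GM and 0.481 to 0.561 FPKM in DM. These markers were named after their values were seen. The 5 endothelial markers in the table, PECAM1, CDH5, VWF, TEK and ESAM, were at or under 0.323 FPKM in every library, and CDH5 was at 0 in 3 libraries. Of 5 immune markers 3 were in the table, and they summed to 1.03 to 1.84 FPKM in GM and 1.01 to 2.01 FPKM in DM, most of it CD68. Transcripts of the myogenic, fibroblast and pericyte and smooth muscle marker lists thus shared these libraries with the Notch genes. Which cells they came from, and their part in the Notch differences, was not tested. No library stood apart, since log2(FPKM + 1) correlated at 0.995 to 0.997 within GM, 0.997 within DM and 0.981 to 0.983 between GM and DM. These correlations took in all 18436 genes, also those too low to be tested.

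The rest of the pathway, described through 64 further Notch genes in 5 lists, did not move in 1 direction. Of these genes 62 were in the table and 50 were tested. In DM 5 were called higher and 2 lower, and the median log2 fold change of the 50 was 0.05. By the same rule 11.8% of all tested genes were called, 4.89% higher and 6.88% lower. These shares also apply to the counts of the single lists below. With an adjusted p under 0.05 at any fold (limma), 14 of the 50 were higher and 10 lower. That rule was met by 42.8% of all tested genes, 16.1% higher and 26.7% lower. Of the members, the same 7 that were called met it.

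Of 8 further receptors and ligands, 3 were tested and all 3 rose. MFAP5 and MFAP2, microfibril proteins of the extracellular matrix that can bind Notch and Jagged proteins, rose from 19.9 to 21.6 FPKM in GM to 51.8 to 55.7 FPKM in DM and from 18.6 to 22.8 FPKM to 34.4 to 37.7 FPKM. Their DM means were 2.55-fold and 1.74-fold higher, and their log2 fold changes were 1.31 (SE 0.05, adjusted p = 9.72e-07, limma) and 0.78 (SE 0.08, adjusted p = 1.13e-04, limma). DLK2, a Delta-like protein that lacks the usual receptor-binding domain, rose from 0.473 to 0.665 FPKM to 1.80 to 2.17 FPKM, a DM mean 3.61-fold higher (log2 fold change 0.93, SE 0.09, adjusted p = 9.23e-05, limma). NOTCH4, the fourth receptor, was at 0.192 to 0.234 FPKM in GM and 0.159 to 0.208 FPKM in DM, and the ligand DLL4 was listed at 0 in 5 of the 6 libraries.

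Of 14 genes that process the receptor, 13 were tested and LFNG was the only one called. LFNG, a sugar transferase that alters which ligands a Notch receptor answers to, measured 10.4, 11.2 and 11.3 FPKM in GM and 4.45, 4.09 and 4.19 FPKM in DM. The fall left 38.7% of the GM mean (log2 fold change −1.19, SE 0.06, adjusted p = 3.00e-06, limma), a share like those of NOTCH1 and HEYL. Of 15 genes of endocytosis and turnover, 13 were tested and 2 were called. NEURL1, a ubiquitin ligase that acts on Notch ligands, rose from 0.550 to 0.784 FPKM to 3.35 to 3.56 FPKM, a DM mean 4.94-fold higher (log2 fold change 1.39, SE 0.08, adjusted p = 5.43e-06, limma). DTX4, of the Deltex ubiquitin ligases that act on Notch receptors, rose from 0.655 to 0.958 FPKM to 2.24 to 2.59 FPKM, a DM mean 3.03-fold higher (log2 fold change 0.93, SE 0.09, adjusted p = 8.51e-05, limma). Of 20 nuclear co-factors, 19 were tested and 1 was called. Of 7 further target genes 5 were in the table and 2 were tested, of which 1 was lower in DM at an adjusted p under 0.05 (limma) and none passed the fold limit.

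**Figure D3:**
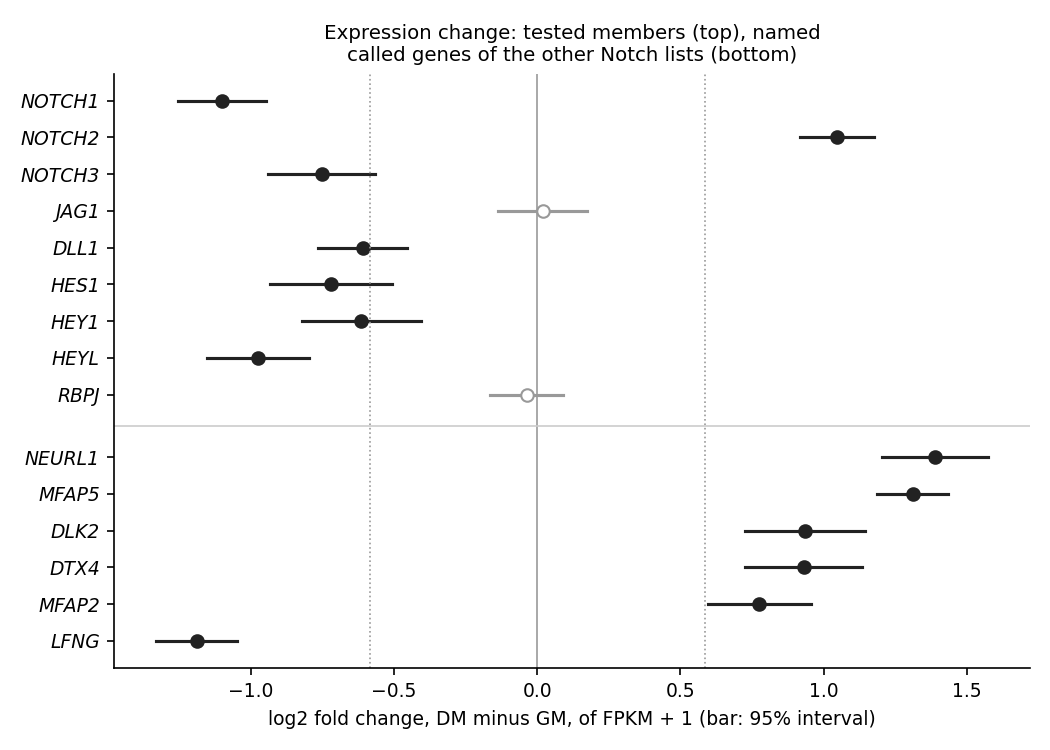
Log2 fold change of FPKM + 1, DM minus GM, with its 95% interval, for the 9 tested members and 6 called genes of the other Notch lists. Filled points passed the rule, open points did not, and dotted lines mark a fold of 1.5. DLL1 and HEY1 lie just beyond the line, and JAG1 and RBPJ at 0.02 and −0.04.

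The deposited table annotates 47 genes to the KEGG Notch signaling pathway. Of these 38 were tested, 2 were called higher (NOTCH2 and DTX4) and 6 lower (NOTCH1, NOTCH3, DLL1, HES1 and LFNG among them). Over all tested genes, 4.89% were called higher and 6.88% lower. NOTCH1, NOTCH2, NOTCH3, DLL1 and HES1 are members, so this count largely repeats theirs. HEY1 and HEYL do not carry that annotation.

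Transcripts of nearly all members carried m6A peaks. A peak is a stretch of exon where the authors' peak caller found more IP than input reads after pooling the libraries of a state, and its fold enrichment is that ratio. The 3 IP libraries of a state are pooled in these lists, which give 1 value per peak and state, so a difference between GM and DM in a peak could not be set against a replicate error here. At least 1 peak was listed for 9 members in GM and for 10 in DM. Of the 9 tested members, 8 had a peak in GM and 9 in DM, beside 70.9% and 78.7% of all tested genes. Those genes were not matched to the members in expression, so these shares do not show whether the members were marked unusually often. The members' fold enrichment ran from 1.42 to 40.3 with a median of 3.07 in GM and from 1.14 to 13.8 with a median of 2.98 in DM, where all listed peaks had medians of 3.27 and 3.38.

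The peaks lay mainly at the 3′ end. In GM 14 of the 19 peaks were annotated to a 3′ UTR, and in DM 12 of 19, where 42.6% and 45.3% of all peaks were. A 3′ UTR peak was listed for 8 of the 9 members with peaks in GM and 9 of 10 in DM. NOTCH2 was the exception in both, as its main peak was annotated to exon 34 of 34, although it ran to the annotated end of the gene. The NOTCH2 peaks are annotated to a transcript that the gene table does not list for NOTCH2, so its exon numbers and its lack of a 3′ UTR annotation are those of that transcript. A peak ended at the last base of the gene model in 5 members in GM and 7 in DM.

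**Figure D4:**
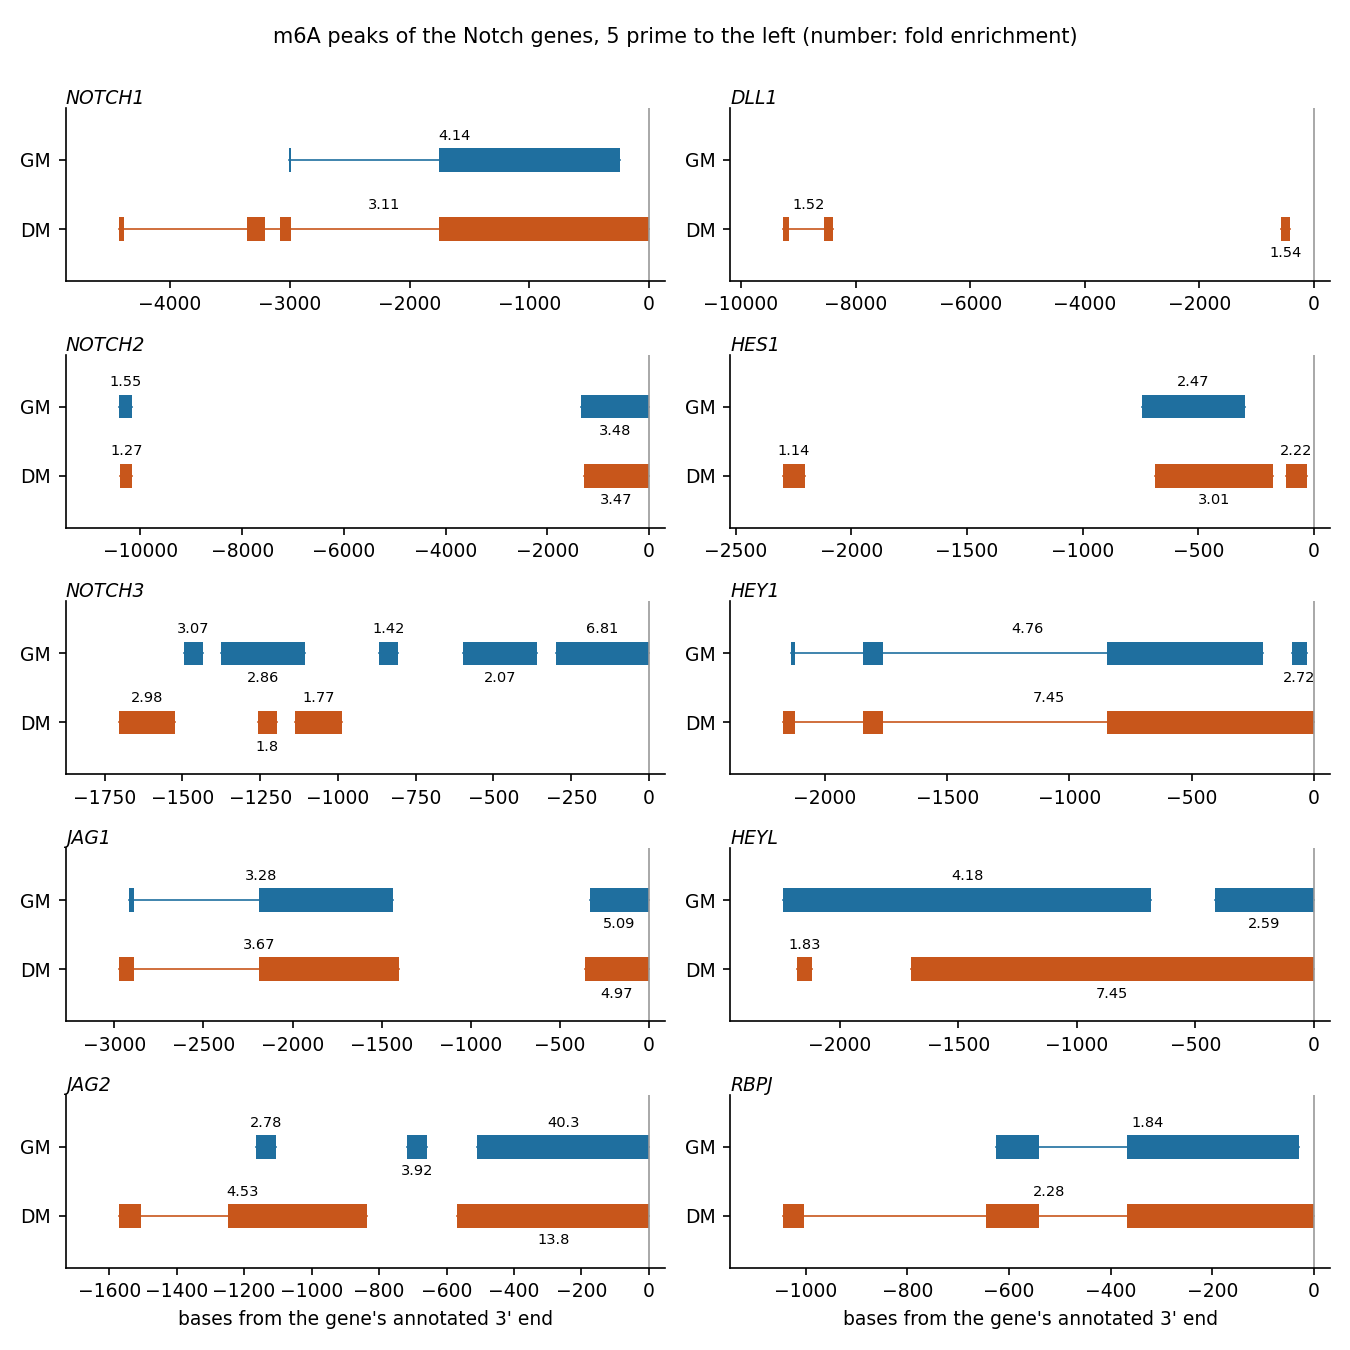
m6A peaks of the 10 Notch genes in GM and DM, drawn as exon blocks joined by lines, by distance in bases from the annotated 3′ end of the gene (each panel has its own scale), with the fold enrichment beside each peak. Most blocks lie toward the 3′ end, the 6.81 peak at the end of NOTCH3 has no counterpart in DM, and DLL1 has peaks in DM only.

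Peaks could be followed between states where exactly 1 GM and 1 DM peak overlapped by at least 1 base. The members gave 9 such pairs, and the ratio of fold enrichment passed 1.5 in 2 of them, beside 25.1% of 10239 pairs over all genes, 14.2% higher and 10.8% lower in DM. The median log2 ratio, DM over GM, was −0.0042 over the members' pairs and 0.07 over all pairs. Both pairs past 1.5 were in JAG2 and went in opposite directions.

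JAG2 combined the lowest expression of the members with their highest enrichment. Its 3′ UTR peak covered 509 bases at chromosome 21, 69505932 to 69506440 (ARS-UCD1.2, minus strand), with a fold enrichment of 40.3 in GM and a log10 p of −10.5 from the authors' peak caller. In DM the peak at 69505932 to 69506499 had a fold enrichment of 13.8 and a log10 p of −4.56, which was 2.92-fold lower. The upstream pair joined a GM peak of 60 bases in exon 22 of 22, with a fold enrichment of 2.78, to a DM peak of 479 bases with 4.53, which was 1.63-fold higher. Only 12.5% of that DM peak was shared, so this pair compares different stretches, and it was lost at a false discovery rate under 0.001. JAG2 averaged 0.354 FPKM in GM and 0.398 FPKM in DM, and the input reads under these ratios were not counted here.

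The pairs of the better expressed members lay within 1.5-fold. NOTCH2, whose FPKM was 2.08-fold higher in DM, kept nearly the same enrichment at its end, 3.48 in GM and 3.47 in DM, over peaks of 1346 and 1287 bases. Its weaker peak in exon 25 of 34 had 1.55 and 1.27. NOTCH1, whose FPKM fell, had 1 peak in each state, with a fold enrichment of 4.14 over 1531 bases in GM and 3.11 over 2041 bases in DM. JAG1 had 2 pairs, with 3.28 and 3.67 in a peak that ended 1435 and 1405 bases before the gene's end, and 5.09 and 4.97 in one that reached it. HES1 had 2.47 and 3.01, and RBPJ 1.84 and 2.28. In these 7 pairs the larger enrichment was at most 1.33-fold the smaller.

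**Figure D5:**
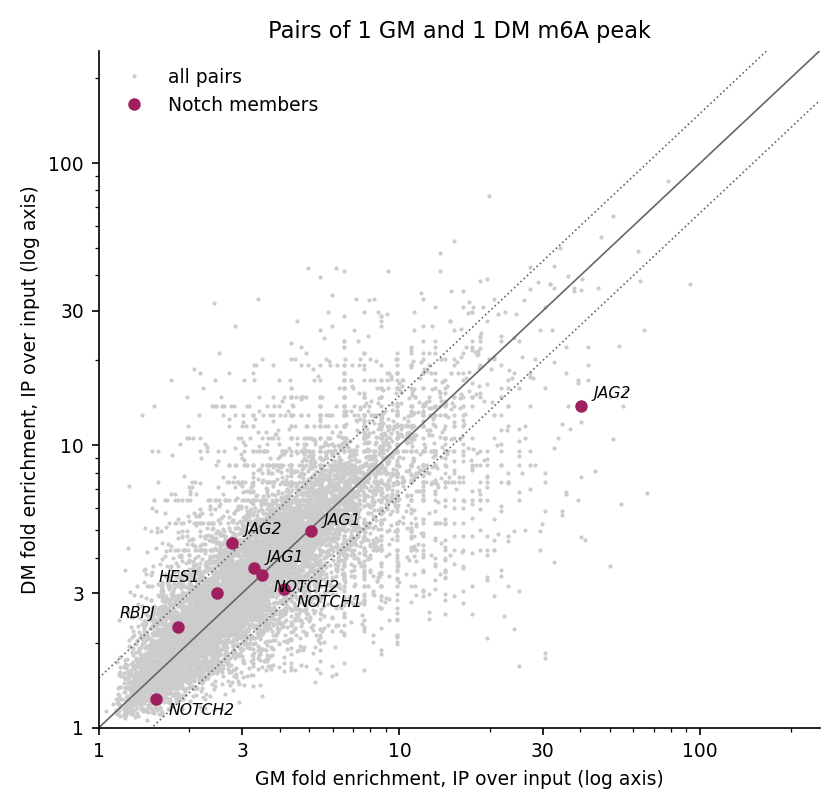
Fold enrichment in GM and DM (log axes) of the 9 peak pairs of the Notch members, over the 10239 pairs of all genes in grey, with a solid line at equality and dotted lines at a ratio of 1.5. The JAG2 pairs at 40.3 and 13.8 and at 2.78 and 4.53 lie outside the dotted lines, and the pairs of NOTCH1, NOTCH2, JAG1, HES1 and RBPJ inside.

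The peaks of the other members could not be paired 1 to 1. HEY1 had a GM peak of 740 bases with a fold enrichment of 4.76 and a second of 60 bases with 2.72, and a single DM peak of 977 bases with 7.45 covered both. HEYL had GM peaks of 1551 bases with 4.18 and 418 bases with 2.59, and DM peaks of 61 bases with 1.83 and 1700 bases with 7.45. In both HEY genes the most significant peak thus had a higher listed enrichment in DM, 1.57-fold and 1.78-fold, while their FPKM was lower. These peaks shared 100% of the GM and 75.7% of the DM peak in HEY1, and 65.4% and 59.6% in HEYL. The ratios thus compare partly different stretches, and the input reads under them were not counted here. When 50% of each peak had to be shared, the most significant HEY1 and HEYL peaks were pairs of 1 and 1 and the upstream JAG2 pair was not. At a false discovery rate under 0.001 the HEY1 peaks were such a pair.

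NOTCH3 had 5 peaks in GM and 3 in DM, all in the last exon. The strongest in GM covered the last 300 bases of the gene, chromosome 7, 7950177 to 7950476 (plus strand), with a fold enrichment of 6.81 and a log10 p of −29.6. No DM peak lay over it, nor over 3 of the other 4 GM peaks, and 14.7% of all GM peaks had no DM peak over them. The DM peaks had fold enrichments of 2.98, 1.80 and 1.77 with log10 p of −1.64, −1.38 and −1.45. NOTCH3 was at 0.854 FPKM on average in DM against 2.13 in GM, and the part of that difference in the missing peak was not tested. A peak that is not listed does not show that the mark was absent.

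DLL1 had no peak in GM, where its FPKM was higher, and 2 weak ones in DM. These were a 3′ UTR peak with a fold enrichment of 1.54 and a log10 p of −1.50, and a 5′ UTR peak with 1.52 and −2.07. HES1 likewise had 2 weak peaks listed in DM only, with 1.14 in the 5′ UTR and 2.22 near the end of the 3′ UTR. Over all genes, 28.7% of DM peaks had no GM peak over them. At a false discovery rate under 0.001, 15 GM and 10 DM peaks of the members were left, and neither NOTCH3 nor DLL1 kept a peak in DM.

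Taking the most significant peak of each gene in each state, a comparison chosen after seeing the data, 4 of 9 members passed 1.5-fold, beside 28.9% of 9840 genes with peaks in both lists, 16.8% higher and 12.2% lower in DM. HEY1 and HEYL were higher in DM, and JAG2 at 2.92-fold and NOTCH3 at 2.29-fold were lower, though the NOTCH3 peaks shared no base. Of the 64 other Notch genes, 46 had a peak in GM and 51 in DM. Of the 50 tested ones, 42 had a peak in GM and 46 in DM, beside 70.9% and 78.7% of all tested genes, again not matched in expression. The 61 pairs of these 64 genes passed 1.5-fold in 10 cases, 4 higher and 6 lower. Over all genes, 25.1% of 10239 pairs passed, 14.2% higher and 10.8% lower in DM. Among the other Notch genes called on expression, the 1 pair of DTX4, which had 2 GM and 4 DM peaks, went from 7.98 to 3.57. LFNG went from 3.52 to 3.78, MFAP2 from 4.71 to 6.39, and the 1 pair of NEURL1 from 2.25 to 2.18. FPKM fell in LFNG and rose in DTX4, MFAP2 and NEURL1.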

How the data were processed

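Per the labels and the study's methods, poly(A) RNA was fragmented, and strand-specific (dUTP) input and IP libraries were sequenced. The authors trimmed the reads, aligned them to ARS-UCD1.2 with HISAT2 and computed FPKM per input library with StringTie. The deposited table holds these FPKM values for 18436 genes, and no counts, so the counting error of a gene is unknown and its precision rests on 3 libraries per group. The authors called peaks with exomePeak on the pooled uniquely mapped, non-duplicate reads of each group, and annotated them with ChIPseeker. The deposited fold enrichment is their linear ratio of IP over input, and the deposited p-value, at most 0.05, is theirs and unadjusted. The log10 columns deposited by the authors hold that p-value and its false discovery rate.

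Expression was fitted here in R 4.3.3 with limma 3.58.1, with a variance trend, on log2(FPKM + 1) for all genes averaging 0.5 FPKM or more, and genes were called at an adjusted p under 0.05 and a fold over 1.5. The authors' own test of read counts was not used here. Peaks were paired (Python 3.11.15, pandas 2.3.3) on exon blocks of the same strand. Both steps were tested on simulated data. The members and the gene lists were chosen with earlier results of these data known. All members are named. Of the other Notch lists, the called genes are named (at most 4 per list and direction, and 1 called gene is not reported here), and of the markers those of myoblasts and myotubes with values. JAG1 and RBPJ each overlap 1 gene on the opposite strand, at no more than 0.227 FPKM. Alternatives covered the pseudocount, filter, scaling, thresholds, block, each library left out, and peak stringency and overlap.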

Additional observations from a re-analysis of the deposited data

How the results depend on the processing

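With a fold limit of 2 in place of 1.5, 2 members (NOTCH1 and NOTCH2) and 3 other Notch genes were called, where 7 and 7 were before, and 504 of all genes where 1448 were. At an adjusted p alone, 24 other Notch genes and 5268 of all genes passed. Leaving out each library in turn gave 6 to 7 called members and 6 to 7 called other Notch genes. The log2 fold change of RBPJ, not called, turned to 0.025 with size factors and 0.086 with TPM, and that of JAG1, not called, ranged from −0.027 without DM repeat 2 to 0.071 without DM repeat 3. Of the 160 log2 fold changes of the members and called Notch genes under settings that kept all libraries, 145 kept their sign and side of the thresholds. Another 13 no longer passed and those 2 of RBPJ turned. The filter, block, variance trend and threshold settings leave the fold change itself unchanged. Only the pseudocount, size factors and TPM could turn a sign, so the count of 145 is partly fixed by construction. Same-numbered GM and DM libraries deviated from their group means with correlations of −0.079, −0.123 and −0.208, and differently numbered ones with −0.059 to 0.187. With 3 libraries per state these values cannot show whether same-numbered libraries belonged together. With the replicate block 7 members, 7 other Notch genes and 1459 of all genes were called. With the ratio limit at 2, 1 pair of the members passed (JAG2, lower in DM), and with the most significant peak of each gene, chosen after seeing the data, 4 members did, where 2 of 9 pairs passed before. The cause of these differences was not tested, apart from thresholds that are stricter or looser by construction. The peak lists used here pool the 3 libraries of a state, so changes in a peak were not tested, and the intervals of JAG1 and RBPJ cover small changes of either sign.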
